A study of Homo sapiens with 15 samples.

Results

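The genes described here make, break down or bind hyaluronan, the unbranched sugar polymer that fills much of the space between cells. The set was defined by symbol and holds 10 genes: the synthases HAS1, HAS2 and HAS3, the breakdown genes CEMIP, CEMIP2, HYAL1 and HYAL2, the receptor CD44, and the binding proteins VCAN and TNFAIP6. All 10 were listed for MRC5 and 8 for H196, of 17138 genes listed in either line, and 9 and 7 of them had enough counts to be tested. HAS1 and TNFAIP6 were not analysed in H196.

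Hyaluronan is spun out through the plasma membrane by the synthases from UDP-glucuronic acid and UDP-N-acetylglucosamine. It is cut by hyaluronidases and, by report, by the CEMIP proteins, and is read by cells mainly through CD44. In lung connective tissue, fibroblasts are a main source of the polymer, and versican and the TNFAIP6 protein help to bundle it into a matrix.

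RNA-seq was performed on 15 libraries in 5 groups of 3. MRC5, a human lung fibroblast line, was grown alone (MRC5_Mo), with the small cell lung cancer (SCLC) line H69 (MRC5_CoH69) or with the SCLC line H196 (MRC5_CoH196), and H196 was grown alone (H196_Mo) or with MRC5 (H196_Co). The study uses H69 as a neuroendocrine and H196 as a non-neuroendocrine model, and each is a single line, as MRC5 is. All cultures were kept for a week. The study grew its SCLC lines in RPMI medium and MRC5 in MEM, and does not name the co-culture medium. Differences between the lines therefore cannot be told apart from the medium. Co-culture and mono-culture of a line may differ in medium too, and such a difference cannot be told apart from the partner. In co-culture the partner cells sat on the membrane of a porous insert, apart from the collected cells in the well. The labels do not say whether the 3 libraries of a group came from separate cultures, so p-values measure only the spread between these libraries, which may be technical.

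Library totals lay between 16073584 and 19170550 counts. All 8 fibroblast markers exceeded 1 CPM (counts scaled to library size) in every MRC5 library, but their summed level was 12604 to 13346 CPM in MRC5_CoH196 against 26708 to 29720 CPM in MRC5_Mo and 30574 to 31614 CPM in MRC5_CoH69. The lower sum came mostly from collagens. COL1A1 had 4158 to 4564 CPM against 14218 to 15413 CPM in MRC5_Mo, and COL1A2, COL3A1 and the surface marker THY1 were lower too, while PDGFRB had 444 to 474 CPM against 316 to 343 CPM and LUM, DCN and FAP overlapped MRC5_Mo. A set of 95 genes was chosen as abundant in H196 and nearly silent in MRC5_Mo. Their summed level was 23.7 to 61.8 CPM in MRC5_CoH196 and 8.36 to 10.4 CPM in MRC5_CoH69, which played no part in the choice. It was 8.97 to 9.92 CPM in MRC5_Mo and 7747 to 8033 CPM in H196 libraries, low and high by that choice. Of the 95, 1 was at 0 in all MRC5_CoH196 libraries, against 39 in MRC5_CoH69 and 39 in MRC5_Mo. The part of either shift in the results below was not tested. In bulk RNA, fewer cells of a type and less RNA per cell cannot be told apart.

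A gene was called a differentially expressed gene (DEG) when edgeR's quasi-likelihood test gave a Benjamini-Hochberg adjusted p under 0.05 over all tested genes and the absolute log2 fold change exceeded 0.58. In MRC5_CoH196 against MRC5_Mo, 1 of 9 tested members was higher and 2 were lower, beside 17.2% of all tested genes called higher, 14.7% called lower and 31.9% in either direction. The CPM of both groups did not overlap for 8 of 9 members, and this held for 75.5% of all genes. The median log2 fold change of the members was -0.21, and that of all genes -0.003.

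**Figure D1:**
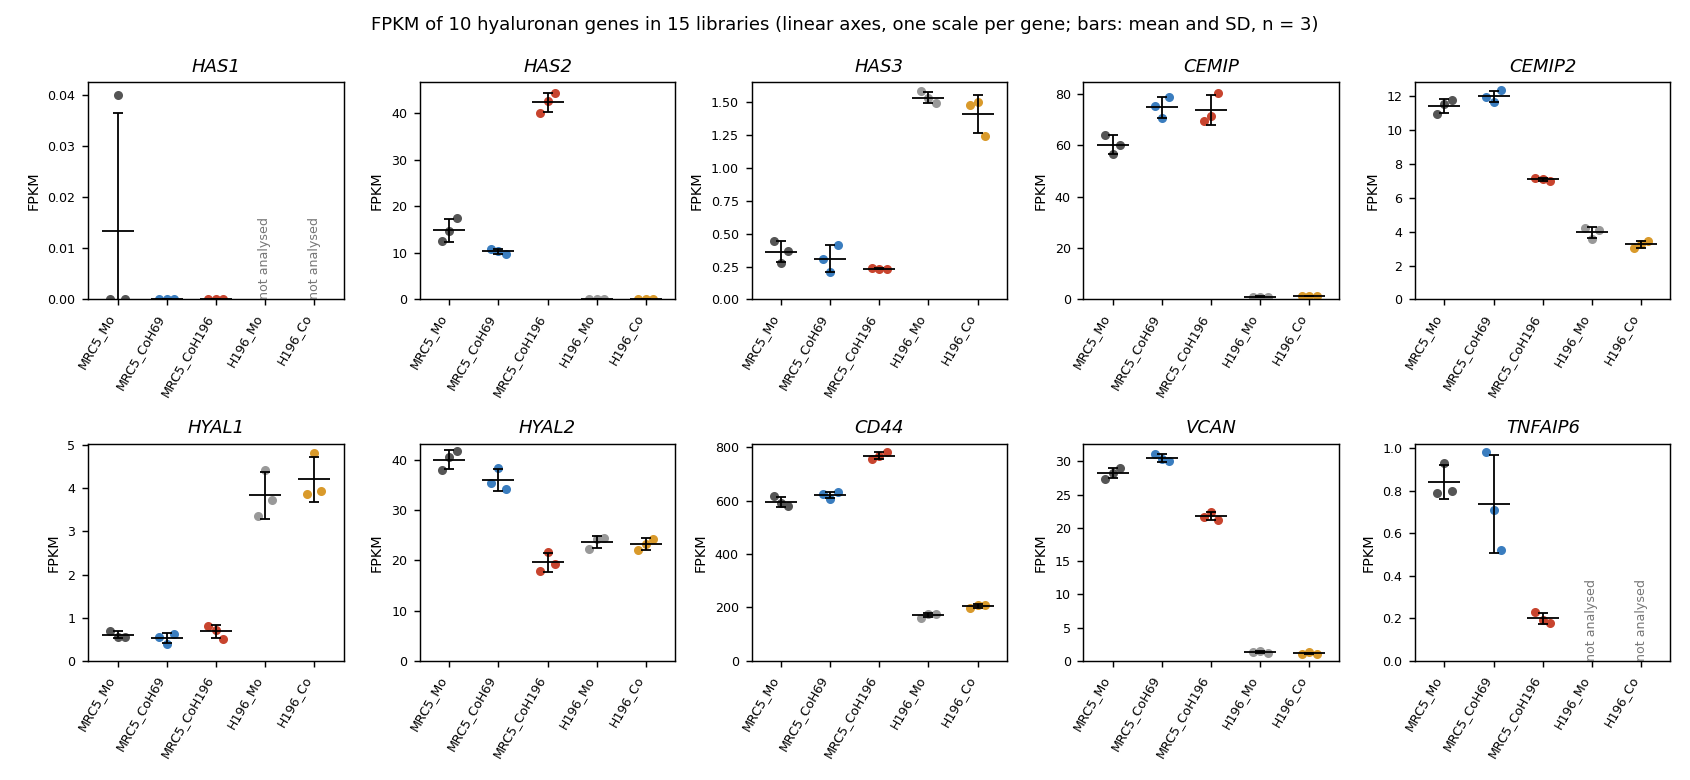
FPKM (fragments scaled to gene length and library size, y axis, linear, one scale per gene) of each hyaluronan gene in the 15 libraries, by group on the x axis; points are libraries, bars the mean and SD of 3. HAS2 reached 40.1 to 44.2 FPKM in MRC5_CoH196 and stayed at or under 17.4 FPKM in every other group, while HYAL2, CEMIP2, VCAN and TNFAIP6 had their lowest MRC5 levels there.

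HAS2, the main synthase of fibroblasts, had the largest rise among the members. Its level was 40.1, 42.6 and 44.2 FPKM in MRC5_CoH196, 12.4, 14.7 and 17.4 FPKM in MRC5_Mo, and 10.8, 10.5 and 9.72 FPKM in MRC5_CoH69. The MRC5_CoH196 libraries were thus all above the other 6, and the MRC5_CoH69 libraries were all below MRC5_Mo. The rise over MRC5_Mo was 3.21-fold (log2 1.68, SE 0.07, edgeR adjusted p 1.86e-16), and that over MRC5_CoH69 was 4.58-fold (log2 2.19, SE 0.08, edgeR adjusted p 2.17e-18). Against MRC5_Mo, MRC5_CoH69 differed by log2 -0.51 (SE 0.08, edgeR adjusted p 0.000188), which is inside the fold limit. Without MRC5_Mo replicate 1, that value was -0.63 and passed the limit.

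In H196 cells HAS2 was barely measured. The expected counts were 6, 6 and 8 in H196_Mo and 12, 7 and 7 in H196_Co, which correspond to 0.09 to 0.18 FPKM, and the gene did not pass the filter there. Against MRC5_Mo, H196_Mo was lower by 7.63 on the log2 scale (SE 0.17, edgeR adjusted p 3.15e-25).

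The HAS2 row has limits of its own. It spans 292158 bases on chromosome 8 (121612116 to 121904273, GRCh38.p13) and lists 34 transcripts, of which 1 is a RefSeq mRNA and 33 are non-coding RNA entries, while RefSeq gives the gene 29325 bases. The row is listed on the plus strand. Whether it holds reads of HAS2-AS1, an antisense RNA, was not tested. Without strand in the counting, the reads of HAS2 and HAS2-AS1 cannot be told apart. The transcript length implied by count and FPKM was 3946 to 3964 bases in all 9 MRC5 libraries, against 4190 bases for the HAS2 mRNA and 339 to 1656 bases for HAS2-AS1 transcripts in GENCODE. For 180 MRC5 genes with a single transcript, the implied length was a median of 316 bases below the annotated one.

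HAS3, a synthase on chromosome 16, was weakly measured in MRC5. Its level was 0.24, 0.23 and 0.23 FPKM in MRC5_CoH196, 0.44, 0.28 and 0.37 FPKM in MRC5_Mo, and 0.31, 0.21 and 0.41 FPKM in MRC5_CoH69. MRC5_CoH196 lay below MRC5_Mo without overlap, but the log2 difference of -0.64 (SE 0.30) missed the threshold with an edgeR adjusted p of 0.0564. Without MRC5_CoH196 replicate 1 it was -0.85 with an edgeR adjusted p of 0.0337, and against MRC5_CoH69 it was -0.54 (edgeR adjusted p 0.109), becoming -0.76 (edgeR adjusted p 0.0352) without MRC5_CoH69 replicate 2. Leaving out other libraries weakened both, to -0.45 (edgeR adjusted p 0.219) against MRC5_Mo without MRC5_CoH196 replicate 2, and to -0.29 (edgeR adjusted p 0.464) against MRC5_CoH69 without MRC5_CoH69 replicate 3.

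In H196 the order of the synthases was the opposite of that in MRC5. HAS3 stood at 1.49 to 1.58 FPKM in H196_Mo and 1.24 to 1.5 FPKM in H196_Co, ranges that overlap. It was 3.39-fold higher in H196_Mo than in MRC5_Mo (log2 1.76, SE 0.19, edgeR adjusted p 1.45e-09). HAS1 had 1 count in MRC5_Mo replicate 2 and 0 in the other 8 MRC5 libraries, where a count of 0 allows up to 0.156 to 0.162 CPM, counting error only.

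Of the summed synthase FPKM, HAS2 made up 97.5% ± 0.758 (SD, n = 3) in MRC5_Mo, 97.1% ± 1.05 in MRC5_CoH69 and 99.4% ± 0.0404 in MRC5_CoH196. In H196 its share was 6.13% ± 1.15 in H196_Mo and 8.38% ± 2.16 in H196_Co, and HAS3 held the remainder. The sum itself was 40.3 to 44.4 FPKM in MRC5_CoH196, 12.9 to 17.8 FPKM in MRC5_Mo and 1.34 to 1.67 FPKM in the H196 libraries. FPKM were normalised separately in each line, so levels set across lines carry that limit.

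**Figure D2:**
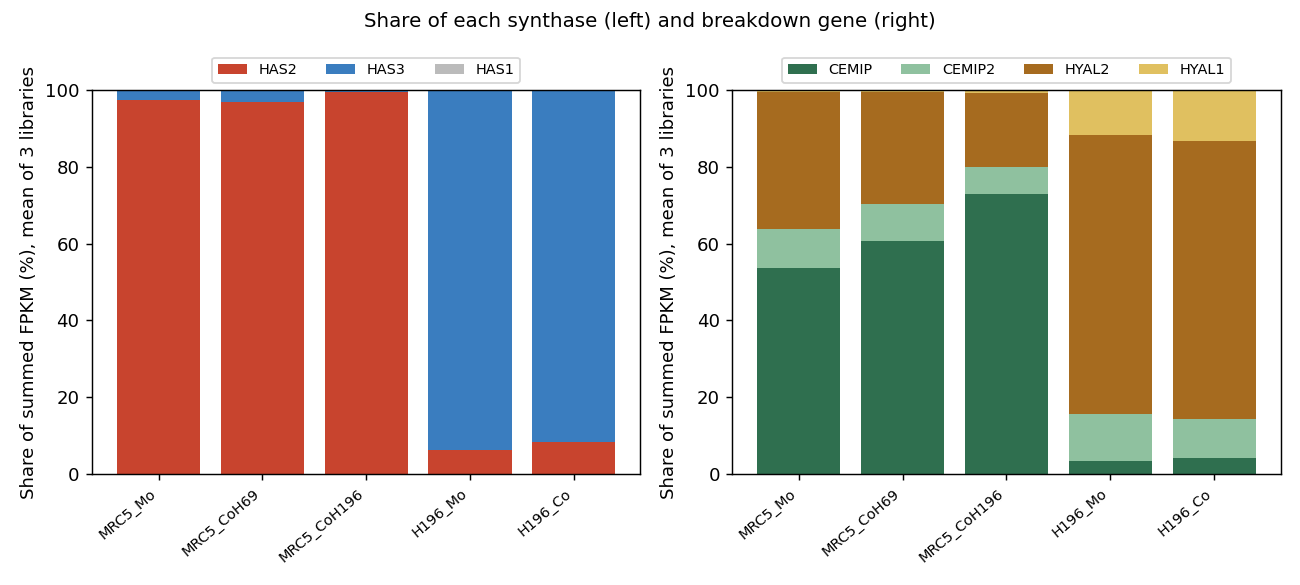
Mean share (percent, y axis, n = 3 libraries) of each synthase in the summed synthase FPKM (left) and of each breakdown gene in the summed breakdown FPKM (right), by group on the x axis. HAS2 held 97.1% or more in the MRC5 groups and HAS3 held 93.9% in H196_Mo and 91.6% in H196_Co, while the CEMIP share of breakdown was 53.6% in MRC5_Mo, 72.9% in MRC5_CoH196 and 3.40% in H196_Mo.

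HYAL2, a membrane-anchored hyaluronidase that cuts long chains, fell in MRC5_CoH196. The values were 17.9, 21.6 and 19.2 FPKM there, 37.9, 40.5 and 41.7 FPKM in MRC5_Mo, and 35.4, 38.4 and 34.1 FPKM in MRC5_CoH69. No MRC5_CoH196 library reached the other MRC5 groups, and the latter pair overlapped. HYAL2 fell by 0.85 on the log2 scale against MRC5_Mo (SE 0.06, edgeR adjusted p 1.73e-12) and by 0.74 against MRC5_CoH69 (SE 0.06, edgeR adjusted p 3.51e-11). In H196 the gene read 22.2 to 24.4 FPKM alone and 22.1 to 24.3 FPKM in co-culture, with a log2 difference of 0.02 and a 95% interval of -0.15 to 0.18.

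CEMIP2, a cell-surface protein reported to cut hyaluronan, was the other breakdown gene that was lower in MRC5_CoH196. It stood at 7.18, 7.14 and 6.99 FPKM there, 10.96, 11.6 and 11.8 FPKM in MRC5_Mo, and 12.0, 11.7 and 12.4 FPKM in MRC5_CoH69. The 3 MRC5_CoH196 libraries lay far below the rest. The log2 difference from MRC5_CoH69 was -0.60 (SE 0.05, edgeR adjusted p 6.75e-11), just past the fold limit, and was -0.58 and inside it without MRC5_CoH69 replicate 3. From MRC5_Mo it was -0.52 (SE 0.05, edgeR adjusted p 9.72e-10), inside the limit, but limma on log2 FPKM gave -0.62 and -0.68 at pseudocounts of 1 and 0.1 and called it lower. The same limma fits put the median of all genes at -0.13 and -0.18, against -0.003 with edgeR.

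CEMIP, a secreted protein needed for hyaluronan breakdown in fibroblasts, was the most abundant breakdown gene of MRC5 by FPKM. Its level was 69.3, 71.4 and 80.4 FPKM in MRC5_CoH196, 75.04, 70.5 and 78.6 FPKM in MRC5_CoH69, and 63.9, 56.5 and 59.99 FPKM in MRC5_Mo. Both co-cultures lay above MRC5_Mo and overlapped each other on this scale. The log2 differences from MRC5_Mo were 0.47 (SE 0.05, edgeR adjusted p 3.15e-08) with H196 and 0.33 (SE 0.05, edgeR adjusted p 0.000348) with H69, both inside the fold limit and both set against the same MRC5_Mo libraries. In H196 it read 1.05 to 1.14 FPKM alone and 1.17 to 1.47 FPKM in co-culture, a log2 difference of 0.37 (SE 0.12, edgeR adjusted p 0.0367) that was also inside the limit. Its adjusted p rose above the threshold with DESeq2, with limma, with the replicate block and without 5 of the 6 libraries in turn, reaching 0.198.

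HYAL1, a lysosomal hyaluronidase, was low in MRC5, at 0.40 to 0.81 FPKM over all 9 libraries with overlapping groups. Most of its expected counts were not whole numbers. Against MRC5_CoH69, MRC5_CoH196 differed by log2 0.55 (SE 0.24, edgeR adjusted p 0.0429), which passed the limit without MRC5_CoH196 replicate 3 (0.72) or without MRC5_CoH69 replicate 3 (0.67). It missed the p threshold without any one of the other 4 libraries, with a log2 difference down to 0.39 and an edgeR adjusted p up to 0.189. H196_Mo had 3.36 to 4.43 FPKM and was 4.69-fold higher than MRC5_Mo (log2 2.23, SE 0.18, edgeR adjusted p 2.67e-12).

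Within the summed FPKM of the 4 breakdown genes, the share of CEMIP was 53.6% ± 2.40 (SD, n = 3) in MRC5_Mo, 60.6% ± 2.15 in MRC5_CoH69 and 72.9% ± 2.13 in MRC5_CoH196. The HYAL2 share was 35.7% ± 1.99, 29.2% ± 2.32 and 19.4% ± 1.80 in the same order. In H196, HYAL2 held 72.6% ± 0.637 alone and 72.5% ± 1.44 in co-culture.

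CD44, the principal hyaluronan receptor, had the highest FPKM of the set in every group. It read 755, 767 and 782 FPKM in MRC5_CoH196, 617, 591 and 578 FPKM in MRC5_Mo, and 623, 608 and 633 FPKM in MRC5_CoH69. MRC5_CoH196 stood above both others, which overlapped. The log2 difference from MRC5_Mo was 0.49 (SE 0.04, edgeR adjusted p 4.02e-11), inside the fold limit. In H196 the level was 161 to 177 FPKM alone and 199 to 211 FPKM in co-culture, without overlap, and the log2 difference of 0.18 (SE 0.07) had an edgeR adjusted p of 0.0671. The implied transcript length of CD44 was 3007 to 3222 bases in H196_Co, 3376 to 3597 bases in H196_Mo and 3798 bases or more in MRC5.

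VCAN, the large proteoglycan versican, was 21.7, 22.5 and 21.2 FPKM in MRC5_CoH196, 27.4, 28.3 and 29.02 FPKM in MRC5_Mo, and 31.2, 30.3 and 30.1 FPKM in MRC5_CoH69. The 3 groups did not overlap on this scale. The log2 difference of MRC5_CoH196 from MRC5_Mo was -0.21 (SE 0.04, edgeR adjusted p 8.01e-05), inside the limit. H196 libraries held 1.07 to 1.5 FPKM, and H196_Mo was lower than MRC5_Mo by 4.90 on the log2 scale (SE 0.08, edgeR adjusted p 2.08e-28).

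TNFAIP6, whose protein passes heavy chains onto hyaluronan, fell in MRC5_CoH196. Its expected counts were 5, 4 and 4 there, 17, 20 and 17 in MRC5_Mo, and 21, 15 and 11 in MRC5_CoH69. The MRC5_CoH196 libraries were below every other one, on few counts, and the other groups overlapped. TNFAIP6 fell by 1.87 on the log2 scale against MRC5_Mo (SE 0.39, edgeR adjusted p 0.000128) and by 1.68 against MRC5_CoH69 (SE 0.40, edgeR adjusted p 0.000596).

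**Figure D3:**
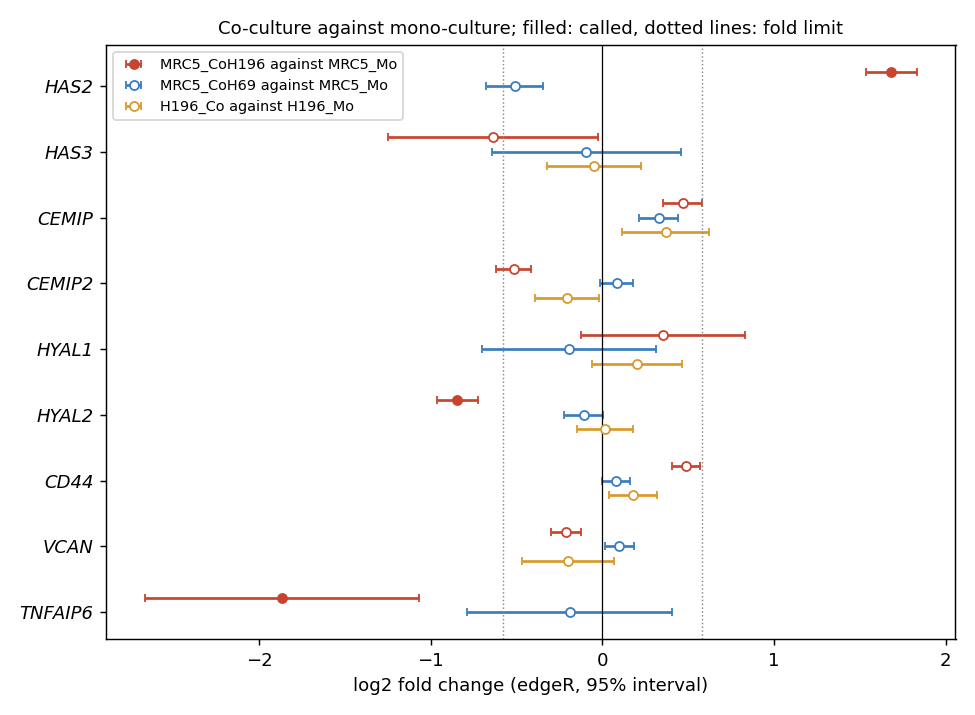
Log2 fold change (x axis) of each tested hyaluronan gene (y axis) in co-culture against mono-culture, with 95% intervals from edgeR; filled points are DEGs and dotted lines mark the fold limit of 0.58. HAS2 (1.68), HYAL2 (-0.85) and TNFAIP6 (-1.87) are filled, all with H196; HAS1 and, in H196, HAS2 and TNFAIP6 have no point.

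Upstream sequence is shown for HYAL2 and TNFAIP6, the members that fell, and for PTX3, a non-member that binds the TNFAIP6 protein in hyaluronan matrix and also fell. RefSeq promoter entries (GRCh38.p14) matched 9 of 10 members. HAS2 had no entry, so its promoter was not searched. The 250 bases before the start are given, with capitals for a match on either strand to the AP-1 motif TGACTCA (TNFAIP6, PTX3) or to GCGTG, a core of the hypoxia response element (HYAL2). The lines hold chr3:50322746-50322995 on the minus strand for HYAL2, chr2:151357342-151357591 on the plus strand for TNFAIP6, and chr3:157436600-157436849 on the plus strand for PTX3.
HYAL2: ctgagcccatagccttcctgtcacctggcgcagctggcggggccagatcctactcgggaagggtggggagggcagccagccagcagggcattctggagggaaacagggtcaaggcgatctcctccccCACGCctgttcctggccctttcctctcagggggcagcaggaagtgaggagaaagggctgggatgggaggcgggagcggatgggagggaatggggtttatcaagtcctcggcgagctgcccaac
TNFAIP6: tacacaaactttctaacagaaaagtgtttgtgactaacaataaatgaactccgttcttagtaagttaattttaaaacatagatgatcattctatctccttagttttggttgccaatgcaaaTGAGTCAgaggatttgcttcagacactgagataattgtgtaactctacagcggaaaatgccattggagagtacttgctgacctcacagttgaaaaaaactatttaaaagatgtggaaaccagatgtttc
PTX3: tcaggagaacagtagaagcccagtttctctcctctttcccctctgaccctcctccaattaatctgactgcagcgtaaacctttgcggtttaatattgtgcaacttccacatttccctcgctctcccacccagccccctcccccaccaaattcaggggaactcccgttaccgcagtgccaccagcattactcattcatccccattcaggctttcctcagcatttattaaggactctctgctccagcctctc
The AP-1 motif was found once in TNFAIP6, in no other matched member and not in PTX3, and 4.20% of 35116 promoters held it. GCGTG was found in 4 of the 9 members and in 32.2% of promoters, and ACGTG, the other core form, in 2 and in 18.5%. A match describes letters in this window only.

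PTX3 itself had 18.1 to 20.9 FPKM in MRC5_CoH196, 52.7 to 64.2 FPKM in MRC5_CoH69 and 85.5 to 91.2 FPKM in MRC5_Mo, 3 ranges without overlap. It fell by 2.04 on the log2 scale with H196 (SE 0.06, edgeR adjusted p 1.39e-19) and by 0.59 with H69 (SE 0.05, edgeR adjusted p 6.07e-08), against the same MRC5_Mo libraries. The call with H69 was just past the fold limit and was lost without MRC5_CoH69 replicate 2 (-0.52) or MRC5_Mo replicate 1 (-0.57).

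Of 7 genes that supply the UDP-sugar precursors, edgeR called 3 higher and none lower in MRC5_CoH196 against MRC5_Mo. This stands beside 17.2% of all genes called higher and 14.7% called lower. UAP1, which makes UDP-N-acetylglucosamine, was 147 to 154 FPKM against 58.9 to 69.2 FPKM (log2 1.38, SE 0.05, edgeR adjusted p 4.46e-18). GFPT1 and GFPT2, which catalyse the entry step of the hexosamine pathway, rose by 0.75 and 0.76 on the log2 scale. With limma on log2 FPKM, UAP1 kept its call at either pseudocount, and GFPT1 (0.50 and 0.51) and GFPT2 (0.51 and 0.57) did not pass the fold limit. Those fits moved the median of all genes to -0.13 and -0.18. UGDH, which makes UDP-glucuronic acid, had a log2 difference of -0.53 (SE 0.05, edgeR adjusted p 1.79e-09), inside the limit in edgeR. It had 15.3 to 16.2 FPKM against 25.2 to 26.3 FPKM. Its limma values were not listed, so whether limma called UGDH lower is left unstated here. With H69, none of the 7 was a DEG.

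**Figure D4:**
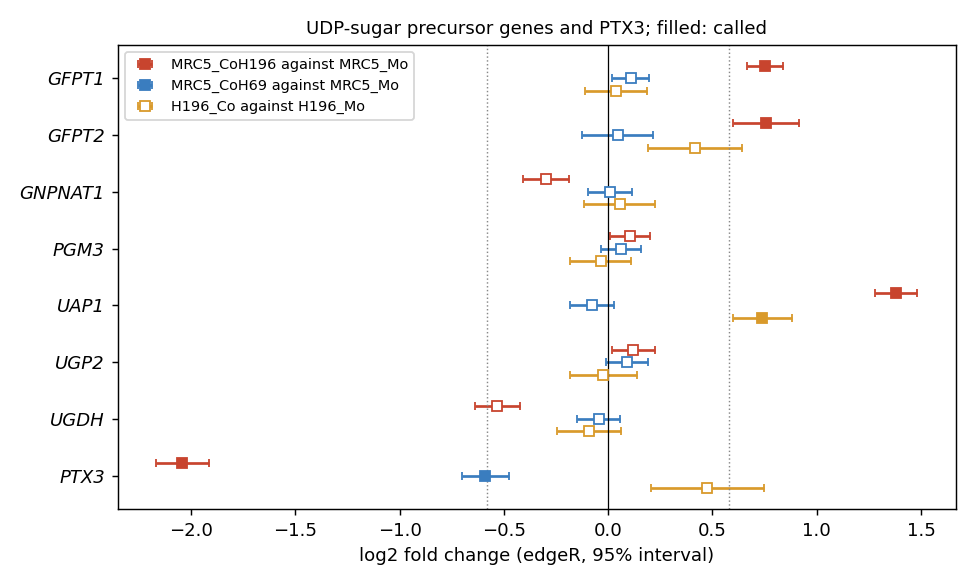
Log2 fold change (x axis) of 7 precursor genes and PTX3 (y axis) in co-culture against mono-culture, with 95% intervals from edgeR; filled squares are DEGs and dotted lines mark the fold limit. UAP1 is filled in MRC5_CoH196 (1.38) and in H196_Co (0.74), and PTX3 is filled with either partner of MRC5, though its call with H69 was lost without MRC5_CoH69 replicate 2 or MRC5_Mo replicate 1.

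Over all 5 pathway lists, 7 of 30 tested genes rose and 1 fell in MRC5_CoH196 against MRC5_Mo, beside the same 17.2% and 14.7% of all genes. This balance turned with limma on log2 FPKM, which called 1 higher and 2 lower at a pseudocount of 1, and 2 higher and 3 lower at 0.1. Those limma fits also moved the median of all genes to -0.13 and -0.18. The shares of all genes that they called were not counted. Apart from the precursor genes, those that rose in edgeR were HEXA (0.63), HYAL3 (0.60), ITIH5 (0.84) and ADAMTS4 (1.35), on the log2 scale, and PTX3 was the one that fell. ITIH5 (34 to 49 counts in MRC5_CoH196, 18 to 30 in MRC5_Mo) and ADAMTS4 (48 to 58 and 22 to 26) rest on few counts. Limma on log2 FPKM called ADAMTS4 only at a pseudocount of 0.1, and HEXA, HYAL3 and ITIH5 at neither. HYAL3 lost its call without MRC5_CoH196 replicate 3 (0.40), MRC5_Mo replicate 1 (0.52) or MRC5_Mo replicate 3 (0.58). In MRC5_CoH69 against MRC5_Mo, ACAN (0.74) and HAPLN3 (0.64) rose and PTX3 fell. ACAN lost its call when any 1 of 5 of the 6 libraries was left out, all but MRC5_CoH69 replicate 3, with edgeR adjusted p up to 0.157. In MRC5_CoH196 against MRC5_CoH69, 1 member was higher and 3 were lower, beside 15.2% of all genes called higher, 13.1% called lower and 28.2% in either direction. The CPM did not overlap for 7 of 9 members, beside 73.1% of all genes. In the same comparison 5 pathway genes were higher, namely UAP1 (1.46), ADAMTS4 (1.05), ITIH5 (0.77), GFPT2 (0.71) and GFPT1 (0.64), and 3 were lower, namely PTX3 (-1.45), ACAN (-0.86) and ADAMTS9 (-0.66). Limma on log2 FPKM called 1 higher and 2 lower at a pseudocount of 1, and 2 higher and 5 lower at 0.1, with the median of all genes at -0.14 and -0.18. ADAMTS9, a versican protease, lost its call without MRC5_CoH196 replicate 3 (-0.52) or MRC5_CoH69 replicate 3 (-0.57).

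MRC5_CoH69 against MRC5_Mo gave 0 DEGs among the 9 members, beside 0.554% of all tested genes (0.421% higher and 0.133% lower). At an unadjusted p under 0.05, edgeR gave 3 (HAS2, CEMIP and VCAN), and DESeq2 and limma also called 0. The share of all genes at that unadjusted threshold was not counted, so the 3 say nothing about the members in particular. The CPM did not overlap for 4 members, beside 25.7% of all genes.

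H196_Co against H196_Mo likewise gave 0 DEGs among 7 tested members, beside 3.86% of all genes (3.26% higher and 0.601% lower). At an unadjusted p under 0.05 edgeR gave 3 (CD44, CEMIP and CEMIP2), and DESeq2 and limma called 0. The share of all genes at that unadjusted threshold was not counted here either. The CPM did not overlap for 2 members (CD44 and CEMIP), beside 37.2% of all genes. Of the pathway genes, UAP1 rose from 102 to 111 FPKM to 166 to 176 FPKM (log2 0.74, SE 0.07, edgeR adjusted p 1.44e-07), and MMP14 (0.69) and HAPLN2 (1.3) rose as well. HAPLN2 lost its call without H196_Co replicate 1 (1.18, edgeR adjusted p 0.0556). It rests on 7 to 9 counts in H196_Mo and 12 to 23 in H196_Co. DESeq2 gave it no adjusted p, and limma did not call it at a pseudocount of 1.

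Between the lines grown alone, 2 of 8 members were higher in H196 (HAS3 and HYAL1) and 6 were lower, beside 31.5% of all genes called higher, 30.2% called lower and 61.7% in either direction. The lines were kept in different media, so line and medium cannot be told apart here. The CPM did not overlap for 8 of 8 members, beside 87.6% of all genes. HAS2, among the 6 lower, passed the filter only through its MRC5 counts, so its place in these counts is no support. CEMIP was lower by 6.24, CD44 by 2.45, CEMIP2 by 1.98 and HYAL2 by 1.15 on the log2 scale. Of 31 pathway genes tested, 6 were higher in H196 and 17 lower. HMMR, a hyaluronan-binding protein of dividing cells, was higher by 2.12 on the log2 scale. LAYN, a hyaluronan receptor, was lower by 8.79, a size that rests on 3 to 11 counts in H196_Mo. LAYN did not pass the filter in H196 and entered this test only through its MRC5 counts.

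The response of MRC5 to H196 was then compared with that of H196 to MRC5 in one edgeR model. Of 8 members, 1 was a DEG and it was lower, beside 12.6% of all genes called lower, 12.1% called higher and 24.7% in either direction. This was HYAL2, with a log2 difference of -0.89 (SE 0.10, edgeR adjusted p 1.60e-08). For HAS2 the difference was 1.22 (SE 0.54) with an edgeR adjusted p of 0.0592, resting on 6 to 12 counts in H196. It became a DEG without MRC5_CoH196 replicate 1 (1.31), MRC5_Mo replicate 1 (1.11), MRC5_Mo replicate 3 (1.35) or H196_Co replicate 1 (1.52).

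The genes whose log2 CPM followed HAS2 most closely over the 9 MRC5 libraries, among 9226 genes, were FMN1, UBASH3B, MGLL, MPC2 and SEMA7A (Pearson r 0.995 to 0.997). For TNFAIP6 they were IPO13, GEMIN5, ENG, MEPCE and ARFRP1 (r 0.988 to 0.991). The libraries fall into groups, so these values describe a shared order of groups.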

How the data were processed

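RNA-seq was analysed for 9 MRC5 and 6 H196 libraries, grouped by their labels. The authors cleaned reads with SOAPnuke 1.5.6 and aligned them with HISAT2 2.1.0 and Bowtie2 2.3.4.3 to GRCh38.p13, and the submitters' processing notes also name RSEM 1.3.1. The authors deposited expected counts per gene, which they had not normalised; these were rounded to whole numbers here. The deposited FPKM values were computed by the authors and describe levels only. The authors' fold changes and p-values, and 18 (MRC5) and 12 (H196) other per-library columns, were not used. A second copy of each table held the same counts and FPKM.

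In R 4.3.3, edgeR 4.0.16 (TMM scaling, filterByExpr, quasi-likelihood F test, two-sided, Benjamini-Hochberg adjustment) was fitted to the MRC5 libraries, the H196 libraries and all 15 together, testing 12819, 12806 and 13585 genes. SE is the log2 fold change over the square root of F. DESeq2 1.42.0 and limma 3.58.1 on log2 FPKM with a pseudocount of 1 or 0.1, other filters, a replicate block and leaving out each library were alternatives. The fits were tested on simulated data. The H196-abundant genes reached at least 20 CPM throughout H196 and stayed under 0.5 CPM throughout MRC5_Mo. With 3 libraries per group, intervals and floors cover counting error or this spread only. All 10 members are named, pathway genes could be named where they were DEGs (those between the lines and of the response difference not all are; UGDH, no DEG, was added after its values were seen) and, for the member that rose most and the one that fell most, the 5 most alike genes of at least 10 CPM on average. PTX3 promoter sequence and UGDH were added after their values were seen. Members and lists were chosen with earlier results of these data known.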

Additional observations from a re-analysis of the deposited data

Results flagged for a closer look

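For 3 members, the response of MRC5 to H196 differed from the response of H196 to MRC5 by the test of that difference in edgeR. HYAL2 differed by -0.89 on the log2 scale (SE 0.10, adjusted p 1.60e-08), with -0.85 in MRC5 and 0.02 in H196. CEMIP2 differed by -0.34 (SE 0.10, adjusted p 0.00398), with -0.52 in MRC5 and -0.21 in H196. CD44 differed by 0.29 (SE 0.07, adjusted p 0.00129), with 0.49 in MRC5 and 0.18 in H196. With limma on log2 FPKM the CD44 difference was 0.10 at either pseudocount, with adjusted p up to 0.223, while those of HYAL2 and CEMIP2 stayed under an adjusted p of 0.05 in every alternative run. CEMIP2 and CD44 lay inside the fold limit of 0.58. Groups of 3 were not examined for single outlying libraries.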

How the results depend on the processing

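Of 736 values of single members under the alternatives, 697 kept their direction and side of the threshold, 19 passed it, 2 no longer did and 18 changed sign. None of the 16 member values that were called changed sign; of their 227 alternatives, the 2 that lost the call were CEMIP2 against MRC5_CoH69 without MRC5_CoH69 replicate 3 (-0.58) and TNFAIP6 against MRC5_CoH69 with limma on log2(FPKM + 1) (-0.53). Where a cause is not stated, the cause was not tested.

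With no limit on the fold change, the members called were 7 in MRC5_CoH196 against MRC5_Mo, 2 in MRC5_CoH69 against MRC5_Mo, 8 in MRC5_CoH196 against MRC5_CoH69, 1 in H196_Co and 3 in the response difference, and the pathway genes called were 24, 5, 24 and 5 in the first 4. With a limit of 1, the members were 2 in MRC5_CoH196 against MRC5_CoH69 and 0 in the response difference, and the pathway genes 3, 0, 3 and 1. The shares of all tested genes at these limits were not counted. Nothing about the hyaluronan genes in particular can be read from these counts. Limma on log2(FPKM + 1) called 3 pathway genes in MRC5_CoH196 against either group, and on log2(FPKM + 0.1) 5 against MRC5_Mo, with more lower than higher each time. CEMIP2 in MRC5_CoH196 against MRC5_Mo was called lower by limma at either pseudocount. The limma fits moved the median of all genes to -0.13 and -0.18 in MRC5_CoH196 against MRC5_Mo, and to -0.14 and -0.18 in MRC5_CoH196 against MRC5_CoH69. Leaving out 1 library gave 3 to 4 members in MRC5_CoH196 against MRC5_Mo and 0 to 1 in MRC5_CoH69 against MRC5_Mo. It gave 4 to 5 in MRC5_CoH196 against MRC5_CoH69, 0 to 0 in H196_Co, 8 to 8 between the lines and 1 to 2 in the response difference. In MRC5_CoH69 against MRC5_Mo it gave 1 to 3 pathway genes. The shares of all genes called in these limma and leave-out fits were not counted, so the same limit holds for them.

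For the response difference 2 members were called with DESeq2 size factors, with DESeq2, with limma at either pseudocount and with the replicate block, because HAS2 crossed the threshold (adjusted p 0.0499, 0.0123, 1.52e-07, 2.98e-05 and 0.0467). It also did so without MRC5_CoH196 replicate 1, MRC5_Mo replicate 1, MRC5_Mo replicate 3 or H196_Co replicate 1 (log2 1.31, 1.11, 1.35 and 1.52). Libraries of different groups with the same replicate number had correlations of deviations of -0.15 to 0.08. Pairs with different numbers were not compared, so whether the samples were paired cannot be told from this. Among calls of members past both limits the block otherwise changed only HAS3 in MRC5_CoH196 against MRC5_Mo (-0.64, edgeR adjusted p 0.0459), giving 4 members.

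All sign changes were in uncalled values. Leaving out 1 library gave, in MRC5_CoH69 against MRC5_Mo, -0.346 to 0.12 for HAS3 and -0.451 to 0.0088 for TNFAIP6, and in H196_Co -0.099 to 0.0289 for HAS3 and -0.0458 to 0.0555 for HYAL2. In the response difference it gave -0.0141 to 0.166 for CEMIP, -0.0016 to 0.352 for HYAL1 and -0.196 to 0.125 for VCAN. With limma at a pseudocount of 1 and of 0.1, CEMIP against MRC5_CoH69 was -0.0212 and -0.0214, and HYAL2 in H196_Co was -0.0226 and -0.0235. In the response difference, HYAL1 was -0.0421 with limma at a pseudocount of 1, and VCAN was 0.0055 with DESeq2 size factors and 0.0057 with DESeq2.

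Shares from counts in place of FPKM, which do not divide by transcript length, were 99.6% for HAS2 in MRC5_CoH196 and, for CEMIP, 74.5% in MRC5_Mo, 78.8% in MRC5_CoH69, 86.5% in MRC5_CoH196, 8.78% in H196_Mo and 11.2% in H196_Co. Depth limits HAS1, TNFAIP6, HAS3 in MRC5 and HAS2 in H196. Among pathway genes it limits ITIH5, ADAMTS4, ADAMTS9 and ACAN in MRC5 and HAPLN2 and LAYN in H196.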
